A study of Homo sapiens with 4 samples.

Results

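The amino acid transporter families are solute carriers (SLC genes) that move amino acids and related small molecules across cell membranes. The genes described here are those whose probe sets carry a single gene symbol of the SLC1, SLC3, SLC6, SLC7, SLC36, SLC38 or SLC43 family in the array's annotation, which gave 45 of the 12165 genes measured, through 81 probe sets. A probe set is a group of short array probes that read 1 transcript, and each gene was read through its brightest probe set over all arrays. RNA of Huh-7 cells, a line from a human hepatocellular carcinoma, was read on 4 arrays, 2 of cells harvested 48 h after transforming growth factor beta (TGF-beta) was added and 2 of untreated cells. Both groups grew in serum-containing Dulbecco's medium, and RNA was taken from confluent dishes. No dose of TGF-beta is stated in the labels. Both groups come from a single cell line, and nothing says that the arrays of a group were separate cultures, so the p-values cover the spread between these arrays alone, which may be technical.

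Amino acid transporters include secondary active carriers, which use sodium, proton or chloride gradients to pull amino acids in, and exchangers, which trade an amino acid inside the cell for another outside. The exchangers of the SLC7 family that are called light chains carry the transport path and need a heavy chain of the SLC3 family, bound by a disulfide bridge, to reach the membrane. In hepatocytes such carriers supply glutamine, alanine and cationic amino acids for urea, glucose and protein synthesis, and cystine for glutathione. Several of these genes are induced by the transcription factor ATF4 when amino acids run short. The family names take in genes with other substrates as well, since part of SLC6 carries neurotransmitters, creatine or taurine, and SLC43A3 carries purine nucleobases.

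Median probe set intensities were 51.0 and 50.7 on the TGF-beta arrays and 50.3 and 50.1 on the untreated arrays. The hepatocyte product ALB (albumin) was bright, with intensities of 35745 and 35526 on the TGF-beta arrays and 33581 and 34262 on the untreated arrays. Of 5 leukocyte markers measured, CD14 rose (146 and 157 on the TGF-beta arrays, 75.6 and 75.4 on the untreated arrays) and LCP1 fell (291 and 349 against 566 and 532), while PTPRC, the marker of all leukocytes, lay at 28.3 to 31.7 on every array. The summed intensity of the 5 was 520 and 594 on the TGF-beta arrays and 727 and 689 on the untreated arrays. Most of this sum came from LCP1 on every array, so it mainly follows that gene. Its part in the transporter values was not tested. Of the fibroblast, endothelial and neuron markers, 0 of 15 measured passed the test, against 1.22% of all genes. In limma 5 reached an unadjusted p under 0.05 (18.0% of all genes), 2 fibroblast and 1 endothelial marker lower and 2 neuron markers higher. LUM, counted as a fibroblast marker, was nevertheless bright, at 6777 and 7292 on the TGF-beta arrays and 7184 and 6692 on the untreated arrays. The neuron marker TUBB3 was bright as well, at 6150 and 5686 on the TGF-beta arrays and 4279 and 4695 on the untreated arrays. SNAP25, another neuron marker, had a log2 fold change of 0.74 (limma adjusted p = 0.0558).

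After TGF-beta, 1 of the 45 transporter genes rose, 2 fell and 42 did not pass the test (limma over all 12165 genes, adjusted p under 0.05). The gene that rose was SLC6A14, a broad carrier of neutral and cationic amino acids. The 2 that fell were SLC7A11, the cystine importer, and SLC7A7, an exchanger of cationic for neutral amino acids. Over all genes 1.22% were called, 0.658% higher and 0.567% lower, against 6.67% of the transporters, a share that rests on 3 genes. An unadjusted p under 0.05 was reached by 5 transporters with higher and 4 with lower values, together 9 of 45, against 18.0% of all genes (9.35% higher and 8.60% lower). The arrays separated by group in 22 of the 45 transporters, 10 higher and 12 lower, or 48.9%, against 49.1% of all genes (23.3% higher and 25.9% lower). The median log2 fold change of the 45 genes was -0.029, beside -0.0062 over all genes, and their median absolute log2 fold change was 0.15, beside 0.13. The families as a whole therefore spread about as all genes did. A log2 fold change beyond 0.5 in either direction was found in 3 of the 45, and in 631 of all 12165 genes.

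**Figure D1:**
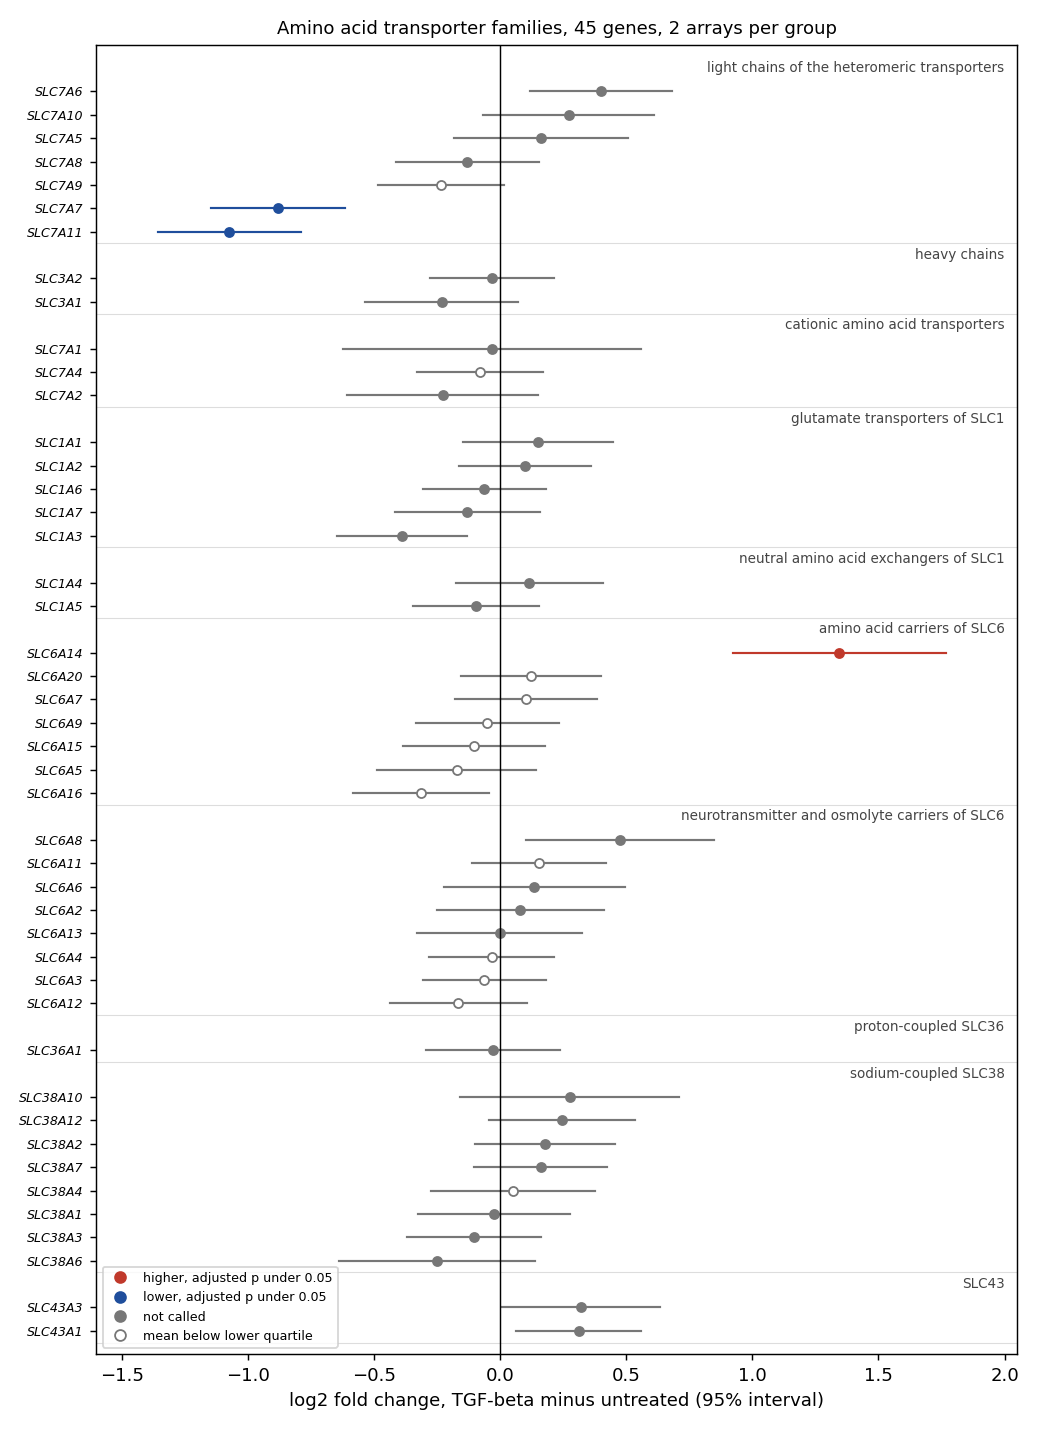
Log2 fold change of all 45 genes (horizontal axis, TGF-beta minus untreated) with its 95% interval from limma, grouped by role. SLC7A11 at -1.07, SLC7A7 at -0.88 and SLC6A14 at 1.34 are the 3 genes past the threshold, and open points mark 13 genes whose mean intensity lay below the lower quartile of all genes.

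SLC7A11 encodes the light chain that imports cystine in exchange for glutamate, and cystine, once reduced to cysteine, feeds glutathione. Its brightest probe set had intensities of 225 and 267 on the TGF-beta arrays, against 511 and 521 on the untreated arrays. The groups did not overlap, and the untreated arrays were nearly equal. SLC7A11 fell by 1.07 ± 0.12 on the log2 scale (SE, n = 2 per group, limma adjusted p = 0.0193), which is 2.10-fold lower. In bulk RNA, less transcript in each cell and fewer cells with the transcript cannot be told apart.

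SLC7A11 had the clearest support among the genes with several probe sets. Its second probe set, of nearly the same brightness, had 232 and 221 on the TGF-beta arrays, against 442 and 482 on the untreated arrays, a log2 fold change of -1.03 ± 0.11 (SE) with an adjusted p of 0.0198 over all 19724 probe sets. The third probe set was dim, at 34.6 and 42.2 against 52.9 and 45.6, and its value of -0.36 ± 0.14 did not pass (adjusted p = 0.256). The 2 bright probe sets thus gave nearly equal falls, and all 3 had the same sign.

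SLC7A7 encodes a light chain that exports cationic amino acids such as arginine and lysine in exchange for neutral amino acids and sodium, and its loss in humans causes lysinuric protein intolerance. Its only probe set had 421 and 427 on the TGF-beta arrays, against 731 and 833 on the untreated arrays. The TGF-beta arrays were nearly equal, and the lower untreated array was well above both. SLC7A7 fell by 0.88 ± 0.11 on the log2 scale (SE, n = 2 per group, limma adjusted p = 0.0256), which is 1.84-fold lower.

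SLC6A14 encodes a carrier that uses sodium and chloride to concentrate nearly all neutral and cationic amino acids. Its only probe set had 83.7 and 58.2 on the TGF-beta arrays, against 25.4 and 29.8 on the untreated arrays. The untreated arrays lay below the lower quartile of all genes (a log2 intensity of 4.99) and the TGF-beta arrays above it, and the 2 TGF-beta arrays differed from each other more than in the other called genes, with an SD of 0.37 on the log2 scale. SLC6A14 rose 2.54-fold, a log2 fold change of 1.34 ± 0.18 (SE, n = 2 per group, limma adjusted p = 0.0294). Adding an offset of 32 before the log, which damps dim genes, gave 0.78 and ended the call (adjusted p = 0.0656).

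All 3 calls depended on having both TGF-beta arrays. Without TGF-beta array 1 the limma adjusted p was 0.200 for SLC7A11, 0.277 for SLC7A7 and 0.200 for SLC6A14, and 0 genes of the whole array were called (1326 at an unadjusted p under 0.05). Without TGF-beta array 2 these values were 0.130, 0.197 and 0.120, again with 0 calls over all genes (1563 at an unadjusted p under 0.05). The log2 fold changes themselves stayed between -1.20 and -0.95 for SLC7A11, between -0.97 and -0.79 for SLC7A7 and between 1.08 and 1.61 for SLC6A14 when any of the 4 arrays was left out.

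**Figure D2:**
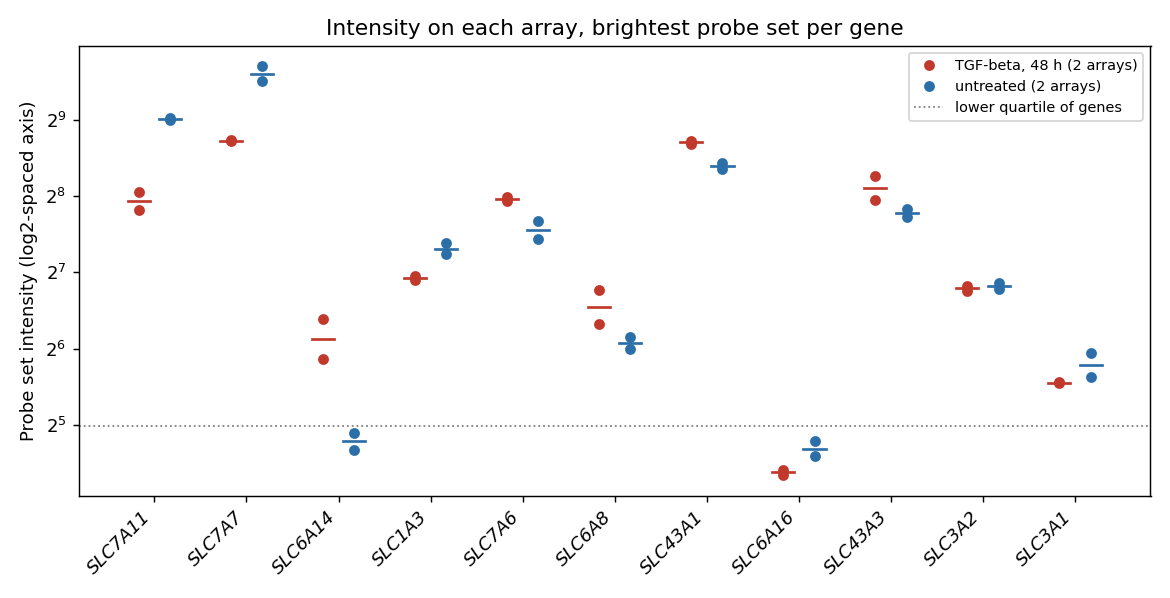
Probe set intensity on each array (vertical axis, spaced by log2) for the 9 genes at an unadjusted p under 0.05 and both heavy chains, with TGF-beta arrays left of untreated arrays and bars at the geometric means. SLC7A11 and SLC7A7 sit lower on both TGF-beta arrays, SLC6A14 crosses the dotted lower quartile of all genes, and SLC3A2 is level.

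The sequence upstream of 2 of the called genes is shown because their transcripts moved in opposite directions. The 250 bases before the annotated transcript start are from RefSeq (GRCh38.p14), chrX:116436356-116436605 on the plus strand for SLC6A14 and chr14:22819792-22820041 on the minus strand for the most upstream of 3 annotated starts of SLC7A7. Capitals mark the letters TGANTCA, the element bound by AP-1 transcription factors, which reads the same on both strands.
SLC6A14: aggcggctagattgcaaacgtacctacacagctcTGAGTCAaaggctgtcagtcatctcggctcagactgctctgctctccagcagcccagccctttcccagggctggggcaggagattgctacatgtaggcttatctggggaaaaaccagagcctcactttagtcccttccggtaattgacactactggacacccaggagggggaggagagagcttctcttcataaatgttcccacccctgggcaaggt
SLC7A7: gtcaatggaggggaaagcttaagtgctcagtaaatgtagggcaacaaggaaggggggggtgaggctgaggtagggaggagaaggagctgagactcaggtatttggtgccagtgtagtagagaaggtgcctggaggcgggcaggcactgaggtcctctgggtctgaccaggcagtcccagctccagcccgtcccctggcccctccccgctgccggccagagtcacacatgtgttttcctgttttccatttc
Promoter entries were searched for 33 of the 45 genes, and SLC7A11 was not among them. Entries of the 45 genes on a single chromosome were left out, while the shares over all promoters kept that chromosome. TGANTCA was found in 7 of the 50 promoter entries of these genes, against 7.71% of all 35116 promoters of the same length of 300 bases. The 7 entries belong to 6 genes, since 2 overlapping entries of SLC7A8 hold the same site. The SLC6A14 match begins 216 bases before the start, and none of the 3 SLC7A7 entries holds these letters. The element also lay in entries of SLC1A3, SLC6A5, SLC7A8, SLC3A2 and SLC38A1. Their log2 fold changes were all negative, at -0.39, -0.17, -0.13, -0.03 and -0.02, and none passed the test. Whether the element goes with the direction of change was not tested. The palindrome GTCTAGAC, which SMAD proteins bind, was found in 0 of the 50 entries and in 0.202% of all promoters. A match describes the letters only, and the factors were not measured here.

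Among the other 5 light chains, 0 passed the test and 1 had an unadjusted p under 0.05 in limma. That gene was SLC7A6, the closest relative of SLC7A7, which carries out a like exchange. SLC7A6 had 245 and 253 on the TGF-beta arrays, against 174 and 205 on the untreated arrays. These groups did not overlap, and the log2 fold change was 0.40 ± 0.12 (SE, limma adjusted p = 0.139, 95% interval 0.12 to 0.68). Its other probe sets were dimmer and gave 0.21 ± 0.16 and -0.05 ± 0.13. So the brightest probe sets of these relatives carried log2 fold changes of opposite sign, -0.88 for SLC7A7 and 0.40 for SLC7A6, of which only the value of SLC7A7 passed. The difference between them was not tested.

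The remaining light chains were SLC7A5 and SLC7A8, which exchange large neutral amino acids, SLC7A9, the cystine and cationic amino acid exchanger of kidney, and SLC7A10, which carries small neutral amino acids. SLC7A5 had 468 and 502 on the TGF-beta arrays, against 496 and 378 on the untreated arrays, and the groups overlapped. Its log2 fold change was 0.16 with a 95% interval of -0.18 to 0.51. SLC7A10 stood at 0.27, SLC7A8 at -0.13 and SLC7A9 at -0.23, all 3 dim, with group means of 21.6 to 50.2. The 5 probe sets of SLC7A8 were dim and gave values of -0.17 to 0.28.

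The heavy chains did not pass. SLC3A2 (CD98), the partner of SLC7A11, SLC7A7, SLC7A6, SLC7A5, SLC7A8 and SLC7A10, had intensities of 108 and 113 on the TGF-beta arrays, against 116 and 110 on the untreated arrays. These values overlap, and the log2 fold change was -0.03 ± 0.11 (SE, adjusted p = 0.912). Its 95% interval of -0.28 to 0.21 leaves out the size of the falls seen in SLC7A11 and SLC7A7. SLC3A1, the partner of SLC7A9, had 46.6 and 47.3 on the TGF-beta arrays, against 49.5 and 61.4 on the untreated arrays, with a log2 fold change of -0.23 ± 0.13 (adjusted p = 0.411). Leaving out untreated array 1 gave -0.39 for SLC3A1, and leaving out untreated array 2 gave -0.08. Its other probe set, at 26.9 to 28.4 on every array, gave 0.0003.

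The cationic amino acid transporters SLC7A1, SLC7A2 and the related SLC7A4 work without a heavy chain. None of the 3 passed (limma, 0 at an unadjusted p under 0.05), and their log2 fold changes were -0.03, -0.23 and -0.08. SLC7A1 had 241 and 234 on the TGF-beta arrays, against 178 and 330 on the untreated arrays. The untreated arrays disagreed by more than for any other of the 45 genes, with an SD of 0.63 on the log2 scale, so the 95% interval of its change was wide, -0.62 to 0.56. The other 5 probe sets of SLC7A1 were dim and gave values between -0.16 and 0.05. SLC7A2, a form found in liver, was dim at 32.05 and 44.4 on the TGF-beta arrays and 42.9 and 45.5 on the untreated arrays.

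In the SLC1 family 0 of 7 genes passed (limma, 1 at an unadjusted p under 0.05), with values between -0.39 and 0.15. SLC1A3, a sodium-driven glutamate importer best known in glia, had the smallest p. It had intensities of 123 and 119 on the TGF-beta arrays, against 167 and 151 on the untreated arrays. The groups did not overlap and lay close within themselves, and the log2 fold change was -0.39 ± 0.11 (SE, limma adjusted p = 0.122). SLC1A1, another glutamate importer, stood at 0.15 with its other probe set at -0.16. SLC1A4 and SLC1A5 exchange small neutral amino acids, SLC1A5 being a main route for glutamine. SLC1A5 had 322 and 330 on the TGF-beta arrays, against 361 and 335 on the untreated arrays, with a 95% interval of -0.34 to 0.16 for its change. The brightest probe set of SLC1A4 gave 0.12, while its other 3 gave -0.28 to -0.12, so no direction can be read for this gene.

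The SLC6 family held the 1 gene that rose and 14 that did not pass (limma, 2 of these at an unadjusted p under 0.05). Of its 15 genes, 10 had a mean intensity below the lower quartile, more than in any other of the families. These included the glycine carriers SLC6A5 and SLC6A9, the proline carriers SLC6A7 and SLC6A20, and the dopamine and serotonin carriers SLC6A3 and SLC6A4. The creatine carrier SLC6A8 had 109 and 80.3 on the TGF-beta arrays, against 70.9 and 63.9 on the untreated arrays. These groups did not overlap, and the log2 fold change was 0.48 ± 0.16 (SE, limma adjusted p = 0.180). Its other probe sets gave 0.68 ± 0.21 and 0.15 ± 0.15, so all 3 were positive, with TGF-beta array 1 the brightest of the 4 arrays in the 2 larger ones. Without TGF-beta array 1 the value of SLC6A8 was 0.25, and without TGF-beta array 2 it was 0.70. SLC6A16, a member without a known substrate, had 21.3 and 20.2 against 24.1 and 27.5, near the floor of the arrays, with a log2 fold change of -0.31 ± 0.12 (adjusted p = 0.219). The taurine carrier SLC6A6 stood at 0.14 and the norepinephrine carrier SLC6A2 at 0.08.

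The sodium-coupled SLC38 carriers take up glutamine, alanine and other neutral amino acids, and 0 of 8 measured passed (limma, 0 at an unadjusted p under 0.05). SLC38A2, which cells induce when amino acids are scarce, had 4763 and 5274 on the TGF-beta arrays, against 4179 and 4692 on the untreated arrays. The arrays separated by a narrow margin, and the log2 fold change was 0.18 ± 0.12 (SE, adjusted p = 0.488), with 0.03 from its other probe set. SLC38A1 had 1896 and 2200 on the TGF-beta arrays, against 1933 and 2233 on the untreated arrays, a 95% interval of -0.33 to 0.28 for its change. SLC38A12, the family member with the smallest p, had 52.3 and 44.3 on the TGF-beta arrays, against 39.0 and 42.2 on the untreated arrays, and a log2 fold change of 0.25 ± 0.12 (adjusted p = 0.347). The untreated arrays of SLC38A6 disagreed, at 530 and 374, against 378 and 370 on the TGF-beta arrays, and its value of -0.25 did not pass. The carriers typical of adult liver were dim, SLC38A3 at 36.97 to 42.5 and SLC38A4 at 24.3 to 30.6 over the 4 arrays, with changes of -0.10 and 0.05.

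Both measured SLC43 genes had positive values without passing. SLC43A1, a sodium-independent carrier of large neutral amino acids, had 412 and 422 on the TGF-beta arrays, against 346 and 327 on the untreated arrays. The arrays of each group were close together and did not overlap, with a log2 fold change of 0.31 ± 0.11 (SE, limma adjusted p = 0.185). SLC43A3, the purine nucleobase carrier, had 306 and 246 on the TGF-beta arrays, against 213 and 227 on the untreated arrays. Its log2 fold change was 0.32 ± 0.13 (adjusted p = 0.267), and its other probe set gave 0.33 ± 0.14. Without TGF-beta array 1 the value of SLC43A3 was 0.16, and without TGF-beta array 2 it was 0.48. SLC36A1, a proton-coupled carrier of lysosomes and the cell surface, was the 1 SLC36 gene measured, at 49.5 and 44.2 on the TGF-beta arrays and 46.4 and 49.1 on the untreated arrays. These values overlapped, and its log2 fold change was -0.03 ± 0.11 (adjusted p = 0.931).

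Of the 16 transporter genes with more than 1 probe set, the other probe sets all shared the sign of the brightest in 5, which were SLC7A11, SLC6A8, SLC43A3, SLC38A2 and SLC7A4. In the other 11 at least 1 had the opposite sign. The log2 fold changes of the brightest probe sets of these 11 lay between -0.23 and 0.40. Over all 81 probe sets 1 was called higher and 3 lower, against 0.887% of all 19724 probe sets tested. The 4 were those of SLC6A14 and SLC7A7 and the 2 bright ones of SLC7A11.

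**Figure D3:**
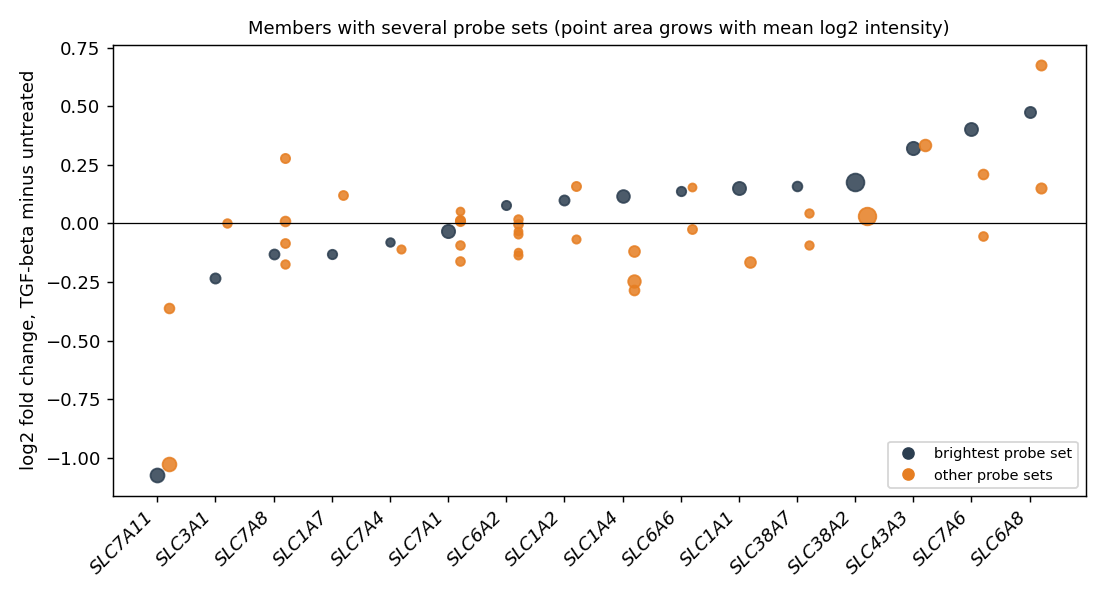
Log2 fold change (vertical axis, TGF-beta minus untreated) of every probe set of the 16 genes that have several, with the brightest in dark and the others in orange, and point area growing with mean log2 intensity. The bright probe sets of SLC7A11 lie together near -1, at -1.07 and -1.03, while most other genes scatter around 0.

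Genes that cells switch on when amino acids are scarce, many of them through ATF4, were set beside the transporters. Of 26 measured outside the transporter families, 7 fell, 1 rose and 18 did not pass, with a median log2 fold change of -0.44 beside -0.0062 over all genes. Against the 1.22% of all genes called, 8 of these 26 were called (30.8%). The whole list was chosen with earlier results of these data known, so this share describes the list and is no independent test. The 4 with the smallest p were NUPR1 (a stress-induced nuclear protein), ASNS (asparagine synthetase), CTH (which makes cysteine from cystathionine) and STC2 (stanniocalcin 2), with log2 fold changes of -1.33, -1.19, -0.95 and -1.04. CTH, a cellular source of cysteine beside cystine import, had 140 and 165 on the TGF-beta arrays, against 291 and 296 on the untreated arrays. Its second probe set fell by 1.18. The second, dimmer probe set of STC2 gave -0.27 ± 0.17 (SE) and did not pass (limma adjusted p = 0.471). ATF4 itself, named after its values were seen, had 9192 and 8782 on the TGF-beta arrays, against 12496 and 11433 on the untreated arrays, and its value of -0.41 ± 0.11 (SE) did not pass (adjusted p = 0.109).

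Several transporters are known from other work to be induced through ATF4, among them SLC7A11, SLC3A2, SLC7A5, SLC7A1, SLC1A5 and SLC38A2. Of these 6, chosen with earlier results known, SLC7A11 fell, while the others had log2 fold changes of -0.03 for SLC3A2, 0.16 for SLC7A5, -0.03 for SLC7A1, -0.09 for SLC1A5 and 0.18 for SLC38A2, none past the test. The amino acid response element bound by ATF4 with C/EBP partners was searched as TGATGNAA on both strands. It was found in 6 of the 50 promoter entries, against 3.62% of all promoters. These 6 sites are shown because none of the 6 genes passed the test. Each is given as 30 bases of the gene's strand with the element in capitals, reading TTNCATCA where it lies on the opposite strand (RefSeq, GRCh38.p14). The windows are chr19:46784893-46784922 on the minus strand for SLC1A5, chr5:36596357-36596386 on the plus strand for SLC1A3, chr2:64989381-64989410 on the plus strand for SLC1A4, chr12:46266502-46266531 on the minus strand for SLC38A1, chr13:29595663-29595692 on the minus strand for SLC7A1 and chr11:62881719-62881748 on the plus strand for SLC3A2.
SLC1A5: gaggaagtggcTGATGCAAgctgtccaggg
SLC1A3: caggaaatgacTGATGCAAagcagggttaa
SLC1A4: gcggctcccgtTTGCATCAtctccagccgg
SLC38A1: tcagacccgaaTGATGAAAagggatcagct
SLC7A1: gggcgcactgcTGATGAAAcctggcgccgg
SLC3A2: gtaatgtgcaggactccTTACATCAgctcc
The matches begin 97, 220, 7 and 4 bases before the start in SLC1A5, SLC1A3, SLC1A4 and SLC38A1, and at base 8 and base 38 after it in SLC7A1 and SLC3A2. The log2 fold changes of these genes were -0.09, -0.39, 0.12, -0.02, -0.03 and -0.03 in the same order, so the largest among them was that of SLC1A3. The SLC3A2 window belongs to 1 of several annotated starts of that gene. SLC1A3 also has more than 1 annotated start, and its window lies before only 1 of them.

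Proteins that bind or regulate amino acid transporters held 2 calls among 10 measured, against 1.22% of all genes. In limma 6 of the 10 reached an unadjusted p under 0.05 (18.0% of all genes), 2 higher and 4 lower. The arrays separated by group in 9 of the 10, 4 higher and 5 lower, against 49.1% of all genes. This list too was chosen with earlier results known, so these counts describe the list and are no independent test. SGK1, a kinase that raises the surface level of many carriers, rose, with 1699 and 1413 on the TGF-beta arrays, against 905 and 846 on the untreated arrays (log2 fold change 0.82 ± 0.13, SE, limma adjusted p = 0.0378). NEDD4, a ubiquitin ligase, fell by 0.90 ± 0.15 on the log2 scale (adjusted p = 0.0403), with 158 and 188 on the TGF-beta arrays, against 357 and 290 on the untreated arrays. The list median was -0.15. Amino acid sensing genes of the mTORC1 and GCN2 pathways had 0 calls among 19 (in limma 3 reached an unadjusted p under 0.05, all lower), with a list median of -0.08. The smallest p there was that of RRAGD, a GTPase that recruits mTORC1 to lysosomes, with 173 and 149 on the TGF-beta arrays, against 228 and 285 on the untreated arrays (log2 fold change -0.67, adjusted p = 0.0687).

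Enzymes that turn imported cystine into glutathione and use it had 0 calls among 7 (in limma 1 reached an unadjusted p under 0.05, higher), with a list median of 0.0063. Over all genes 1.22% were called and 18.0% reached that unadjusted p. GCLM, the modifier subunit of the rate-limiting ligase of glutathione synthesis, had 894 and 974 on the TGF-beta arrays, against 742 and 801 on the untreated arrays (log2 fold change 0.28, adjusted p = 0.255). Amino acid and peptide carriers of other families held 1 call among 16 (6.25%), and in limma 2 reached an unadjusted p under 0.05. SLC25A12, the mitochondrial aspartate-glutamate carrier, fell by 0.80 ± 0.12 (SE, adjusted p = 0.0354), with 49.9 and 43.2 on the TGF-beta arrays, against 81.5 and 79.8 on the untreated arrays. Its other, dimmer probe set gave -0.12 ± 0.12, and the list median was -0.06.

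**Figure D4:**
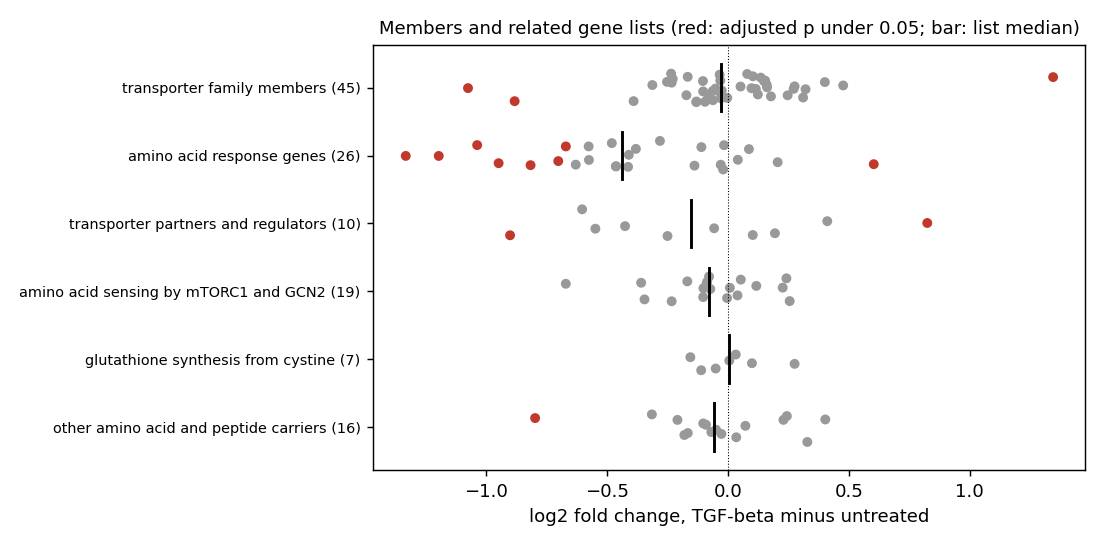
Log2 fold change (horizontal axis, TGF-beta minus untreated) of each transporter and of each gene in 5 related lists, with red points at an adjusted p under 0.05 and a bar at each list's median. The amino acid response genes have a median of -0.44, while the medians of the transporters and the other lists lie between -0.15 and 0.0063.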

How the data were processed

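The authors deposited 1 table of linear probe set intensities for 4 arrays. Per the submitters' processing notes the affy package was used, and its settings are not stated there. Quartiles were nearly equal between arrays, so the deposited intensities were taken to log2 without offset or scaling. Of 22215 probe sets, 19724 name 1 gene in the platform's annotation, with symbols brought up to date from RefSeq. Another 3 name a transporter together with other genes and were not used. The brightest probe set stood for each of 12165 genes. The groups were compared with limma 3.58.1 (R 4.3.3; lmFit, eBayes) over all genes, with Benjamini-Hochberg adjustment and a threshold of 0.05. A fold change is a ratio of geometric means. Arrays have no read depth, and their number limits the precision. The fit was tested on simulated data, where it called 12.7% of changes of 0.5 on the log2 scale and 92.25% of changes of 1. Changes of 0.5 thus mostly went uncalled there.

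The members and lists were chosen with earlier results of these data known. Full values are given for members called or at an unadjusted p under 0.05, both heavy chains and the smallest p of each family. Other lists name up to 4 called genes, or the gene with the smallest p. Of 8 hepatocyte markers, APOA1 rose, TTR fell and 6 did not pass. Alternatives were quantile normalization, median centring, an offset of 32, a filter on dim genes, the mean of all probe sets, an intensity trend, a replicate block and leaving out each array. Plots used matplotlib 3.10.9.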

Additional observations from a re-analysis of the deposited data

How the results depend on the processing

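The 149 calls over all genes became 62 under quantile normalization, 51 with an offset of 32, 89 without dim genes and 616 with an intensity trend, and ranged from 0 to 523 when 1 array was left out. Of the transporters, the count of higher genes was 0 with the offset of 32. With 1 array left out it was 0 to 1, and the count of lower genes 0 to 2. The median of the transporters was 0.039 without dim genes, a filter that leaves 32 of them, and -0.041 to 0.00073 with 1 array left out. SLC7A11 and SLC7A7 kept their calls under 9 of 11 alternatives each and SLC6A14 under 7 of 10, not counting the filter on dim genes, which it passed through its TGF-beta arrays alone. The lost calls were those without either TGF-beta array and, for SLC6A14, the offset. SLC3A2, which was not called, ranged from -0.067 to 0.0012 with 1 array left out. With the replicate number as a block, 1229 genes were called. Among them were 3 higher transporters (SLC6A14, SLC6A8 and SLC7A6) and 3 lower (SLC7A11, SLC7A7 and SLC1A3). In that fit the SEs of these transporters were nearly equal, from 0.135 for SLC1A3 to 0.14 for SLC6A14. In the main fit they ranged from 0.11 for SLC1A3 to 0.18 for SLC6A14. Arrays of the same number did not deviate together (correlation 0.0097 over genes), so the numbers were not taken as pairs. The cause of these shifts was not tested.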
